A study of Mus musculus with 15 samples.

Results

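The Bcl2 family holds the proteins that set whether the outer membrane of the mitochondria is opened during apoptosis, and the mRNAs of 10 of its genes were examined here in the kidneys of mice infused with angiotensin II (Ang II). The genes were listed by name, with earlier results of these data known: Bcl2, Bcl2l1 and Mcl1, which oppose apoptosis, the effectors Bax, Bak1 and Bok, and Bid, Bad, Bcl2l11 and Bnip3, whose proteins carry a BH3 domain. They are 10 of the 13933 genes with a named transcript in all 15 mice, and their 27 listed transcripts, out of 55 annotated, were listed for every mouse. All 10 genes passed the filter on low values (at least 1 FPKM in at least 5 mice) that left 12366 genes for testing.

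Wild-type male C57BL/6 mice, 8 weeks old when bought and given 1 week to adapt, made up a Control group, an Ang II group and an Ang II + QDG group, with 5 in each. Control mice received saline and the other groups received Ang II at 500 ng/kg/min, in each case for 28 days from an implanted osmotic pump. The Ang II + QDG mice were gavaged daily with Qingda granule (QDG, an extract of Gastrodia elata, Uncaria rhynchophylla, Scutellaria baicalensis and Nelumbo nucifera) at 1.145 g/kg, and the mice of both other groups were gavaged with water. The study included no group given QDG without Ang II. RNA of whole kidney was sequenced after removal of ribosomal RNA, per the labels, and the study's methods also name a poly(A) selection step, so how far noncoding and intron-keeping transcripts were captured is not known. In bulk tissue, fewer cells of a type and less RNA per cell cannot be told apart.

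In healthy cells the antiapoptotic proteins hold Bax and Bak1 in check. BH3-only proteins, switched on by stress, bind the antiapoptotic proteins or the effectors directly, after which Bax and Bak1 form pores that release cytochrome c and lead to activation of caspases. In the kidney, tubular epithelium uses this route after ischemia and toxic injury, and much of its control lies in phosphorylation, cleavage and movement of the proteins, which mRNA levels do not show.

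Levels are in FPKM, fragments scaled by transcript length and by the depth of the library, summed over the listed transcripts of a gene. The totals implied by the values were 68922800 to 81329500 fragments a mouse, and the fewest fragments behind a member's gene sum were 317 (Bok in 1 Ang II mouse). Counting error was 1.00% to 5.62% at the fewest fragments of each gene, while the coefficient of variation among 5 mice ran up to 65.2%. The labelled tissue was borne out by all 5 proximal tubule markers, whose summed level was 2734 to 4086 FPKM. Ang II mice 2 and 5 stood apart in nephron segment markers. Their proximal tubule sums were 4086 and 3780 FPKM where no other mouse passed 3437, their thick ascending limb sums 713 and 827 where no other mouse was below 993, and their distal convoluted tubule sums 154 and 145 where no other mouse passed 113. Leaving out both mice was added after the data were seen, and values without them are given beside some of the results below. Without both, 0 of 10 members passed in any comparison, and of all genes 82 instead of 735 were called in the Ang II comparison and 7 instead of 224 in the QDG comparison. Of the leukocyte markers, Cd3e, Cd79a, Ms4a1 and Itgam had no named transcript listed in all 15 mice. The summed level of the 3 that had one was 3.83 to 5.54 FPKM in Control mice, 2.59 to 4.18 in Ang II mice and 3.65 to 7.82 in Ang II + QDG mice. Summed red cell markers were 545 to 1362 FPKM in Control mice, 1115 to 1943 in Ang II mice and 1557 to 2818 in Ang II + QDG mice, and summed podocyte markers were 75.1 to 83.4, 101 to 127 and 98.0 to 125 FPKM. Summed fibroblast and mural markers were 12.7 to 29.96 FPKM in Control mice, 25.6 to 59.6 in Ang II mice and 33.8 to 40.5 in Ang II + QDG mice, so that the Control and Ang II + QDG mice did not overlap. Summed adipose markers were 164 FPKM in Ang II mouse 1, which also had the highest fibroblast and mural sum (59.6), and 24.5 to 102 FPKM in the other mice. The part of any of these lists in the values below was not tested. Renin (Ren1), whose mRNA Ang II is known to lower, was 26.9 to 36.8 FPKM in Control and 17.1 to 37.9 in Ang II mice, so this check did not separate the groups.

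Each gene was compared between Ang II and Control mice (the Ang II comparison), between Ang II + QDG and Ang II mice (the QDG comparison) and between Ang II + QDG and Control mice. None of the 10 genes passed limma's moderated test at an adjusted p under 0.05 in the Ang II comparison, where 5.94% of all genes tested did. Without adjustment Bid and Bcl2l11 had a p under 0.05, 2 of 10 where 22.7% of all genes had one. The QDG comparison gave 0 of 10 members at an adjusted p under 0.05 by limma and 1.81% of all genes (0.526% higher and 1.29% lower), and 1 member (Bnip3) had an unadjusted p under 0.05 beside 16.4% of all genes. Between Ang II + QDG and Control mice limma called 0 of 10 members and 0.129% of all genes (0.097% higher and 0.0323% lower), with 0 members at an unadjusted p under 0.05 beside 14.4%. By the study's own threshold, at least 2-fold (here on the log2(FPKM + 1) scale) with an unadjusted p under 0.05, no member was called in any comparison, where 1.04%, 0.817% and 0.728% of all genes were. For no member did the values of any pair of groups separate, which they did for 7.92%, 5% and 3.64% of all genes. The median log2 fold change of the 10 genes was −0.08 in the Ang II comparison beside 0.08 for all genes, and 2 of 10 were above 0 where 64.8% of all genes were. The QDG comparison had a median of 0.08 for the members and −0.02 for all genes, with 7 of 10 above 0 beside 46.3%, and the third comparison had medians of −0.02 and 0.06, with 4 of 10 above 0 beside 62.5%. These comparisons share mice, and scaling the libraries to equal medians moved the median of all genes in the Ang II comparison from 0.08 to −0.0039, where 4 members (Bid, Bcl2l11, Mcl1 and Bok) rather than 2 had an unadjusted p under 0.05, beside 20.2% of all genes with that scaling. The plots of levels and of differences show all 10 genes side by side.

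**Figure D1:**
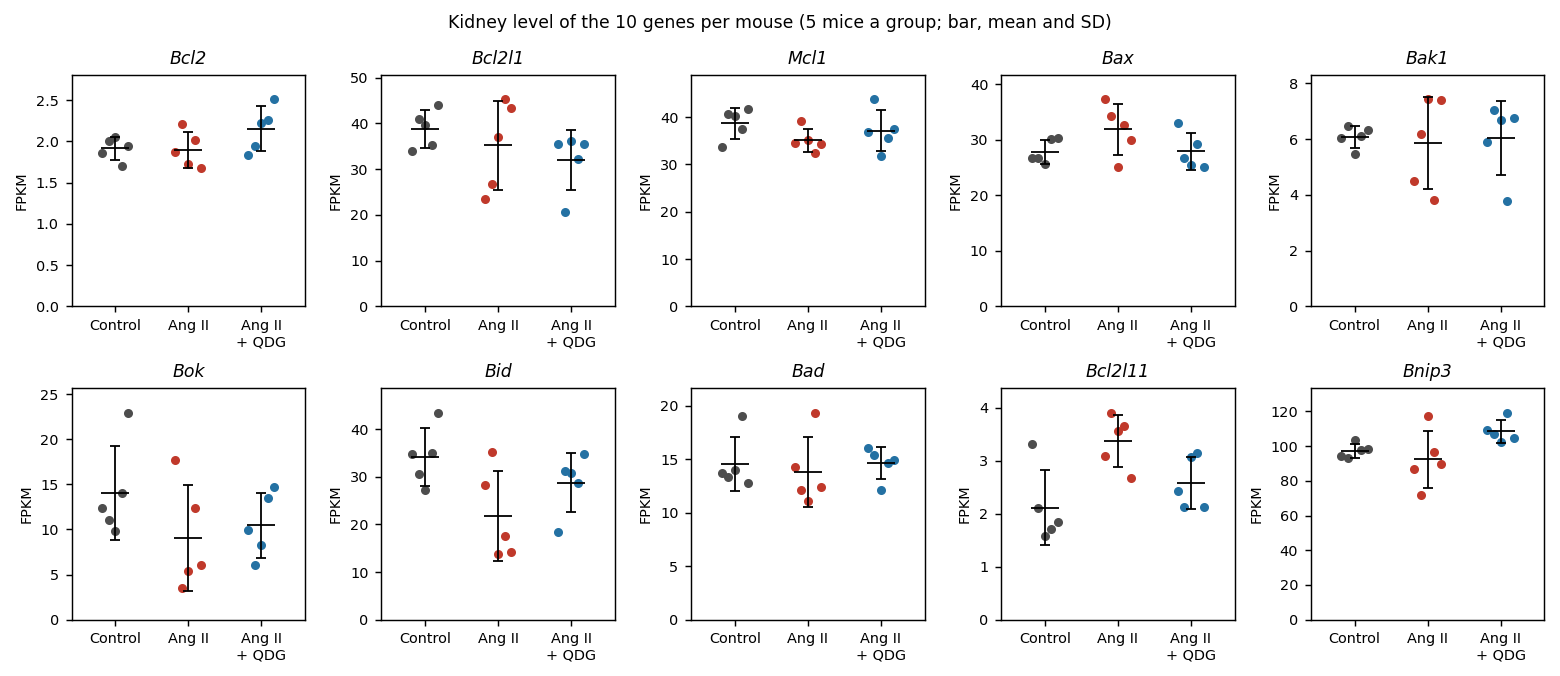
Level of each of the 10 genes in FPKM (vertical axes, starting at 0) in each of 5 Control, 5 Ang II and 5 Ang II + QDG mice (points), with the group mean and SD (bars). The groups overlap for every gene, and Bcl2l11, Bid and Bnip3 show the largest shifts relative to their spread.

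Among the antiapoptotic genes, Mcl1 and Bcl2l1 were abundant and Bcl2 was scarce. Bcl2 (ENSMUSG00000057329, chromosome 1, 106538178 to 106714274 on GRCm38, minus strand) encodes the founding member, which holds BH3-only proteins and Bax at the mitochondria and the endoplasmic reticulum. Its single listed transcript had 1.86, 2.01, 2.05, 1.70 and 1.95 FPKM in the Control mice, 1.87, 2.21, 1.72, 2.02 and 1.68 in the Ang II mice, and 1.83, 1.95, 2.23, 2.26 and 2.51 in the Ang II + QDG mice. The groups overlapped, and the 3 highest values were in Ang II + QDG mice. It had a log2 fold change in the Ang II comparison of −0.01 (95% interval −0.19 to 0.17, adjusted p = 0.966 from limma) and in the QDG comparison of 0.12 (−0.06 to 0.30, adjusted p = 0.509). On the log2(FPKM + 1) scale these intervals hold no change larger than about 0.30 in either direction. At 1.68 to 2.51 FPKM the added 1 FPKM makes fold changes smaller, so the limit on FPKM itself is wider. Exons of the antisense gene D630008O14Rik share 558 bases with it.

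Bcl2l1 (ENSMUSG00000007659, chromosome 2, 152780668 to 152831728, minus strand) encodes Bcl-xL, which keeps Bax off the membrane and is also needed by maturing red cells. It had 34.1, 41.0, 39.7, 35.2 and 44.0 FPKM in Control mice, 23.6, 26.8, 37.0, 45.3 and 43.4 in Ang II mice, and 35.5, 20.6, 36.1, 32.3 and 35.5 in Ang II + QDG mice. In each treated group 2 mice lay below all Control mice, while the others lay within or above the Control range. The log2 fold changes were −0.18 (SE 0.19, adjusted p = 0.630) and −0.12 (SE 0.19, adjusted p = 0.815), and Ang II + QDG against Control gave −0.29 (SE 0.19, adjusted p = 0.499). Without the first Ang II mouse, which had the highest adipose sum and the lowest Bcl2l1 of its group, the first of these was −0.047, and without the second Ang II + QDG mouse the last was −0.15 and that of the QDG comparison was 0.029. Its most abundant transcript, Bcl2l1-202, held 56.0% to 81.2% of the gene's level in the 15 mice.

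Mcl1 (ENSMUSG00000038612, chromosome 3, 95658788 to 95663176, plus strand) encodes a short-lived antiapoptotic protein that is turned over within hours. It varied little among mice, with 33.6, 40.7, 40.2, 37.4 and 41.8 FPKM in Control mice, 34.6, 39.1, 35.1, 32.5 and 34.2 in Ang II mice and 36.9, 43.7, 31.7, 35.6 and 37.6 in Ang II + QDG mice. Mcl1 had a log2 fold change of −0.14 in the Ang II comparison (95% interval −0.31 to 0.04, adjusted p = 0.355) and 0.07 in the QDG comparison (adjusted p = 0.720). With median scaling the first of these was −0.24 (adjusted p = 0.108) and with quantile normalization it was −0.22.

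Of the effectors, Bax was the most abundant and Bak1 the least. Bax (ENSMUSG00000003873, chromosome 7, 45461697 to 45466898, minus strand), a cytosolic protein that moves to the mitochondria to form pores, had 26.6, 26.7, 25.6, 30.1 and 30.2 FPKM in Control mice, 37.3, 34.4, 25.1, 32.7 and 29.9 in Ang II mice and 33.1, 26.8, 25.4, 29.2 and 25.1 in Ang II + QDG mice. Of the Ang II mice, 3 were above every Control mouse and 1 was below every Control mouse. The log2 fold change was 0.18 (95% interval −0.04 to 0.40, adjusted p = 0.332) in the Ang II comparison and −0.18 (−0.40 to 0.04, adjusted p = 0.413) in the QDG comparison. The highest Bax level, 37.3 FPKM, was that of Ang II mouse 1, which stood apart in adipose markers, and without it these were 0.12 and −0.12. Ang II + QDG against Control gave −0.0021 (−0.22 to 0.22, adjusted p = 0.997), but 0.78 (adjusted p = 0.430) with the most abundant transcript only. The Ang II comparison moved with the processing, from 0.076 with median scaling and 0.097 with quantile normalization to 0.82 with the most abundant transcript only, and its adjusted p was at least 0.272 in each of the 9 alternatives. Exons of the protein-coding gene Gm45808 share 192 bases with Bax on the same strand, so reads there could count to either, and Gm45808 was not among the genes tested.

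The Bax level was divided among 4 listed transcripts, of which Bax-201 (ENSMUST00000033093), Bax-203 (ENSMUST00000210392) and Bax-205 (ENSMUST00000211365) were tested. Bax-201 and Bax-205 are shown because they differ by a few coding bases where the last 2 exons are joined. The capitals mark the 4 bases that Bax-201 holds and Bax-205 lacks (chr7:45461963-45461966 on GRCm38, minus strand, from GENCODE release 21 for mouse). The stretches are otherwise alike.
Bax-201: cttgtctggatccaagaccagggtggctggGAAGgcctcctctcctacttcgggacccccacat
Bax-205: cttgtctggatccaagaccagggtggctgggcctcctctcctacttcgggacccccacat
The coding length is 576 bases in Bax-201 and 513 in Bax-205.

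Bax-201 had 13.0, 10.3, 1.69, 10.6 and 17.3 FPKM in Control mice, 20.2, 16.3, 14.5, 16.9 and 14.3 in Ang II mice, and 20.3, 15.1, 14.3, 17.3 and 13.2 in Ang II + QDG mice. The Control mouse at 1.69 FPKM stood far below the rest, and it had the highest Bax-203, at 21.7 FPKM. Bax-201 had a log2 fold change in the Ang II comparison of 0.82 (SE 0.39, adjusted p = 0.317) and in the QDG comparison of −0.04 (adjusted p = 0.984). Without the low Control mouse the first of these was 0.36. Bax-203, which keeps the intron between its first exons, had 13.4, 14.1, 8.25, 12.9 and 12.8 FPKM in Ang II and 9.67, 8.02, 8.80, 8.65 and 8.43 in Ang II + QDG mice, so 4 of 5 Ang II mice were above all Ang II + QDG mice. It had an unadjusted p of 0.0397 in that comparison (log2 fold change −0.43, SE 0.19, adjusted p = 0.414) and of 0.0145 between Ang II + QDG and Control mice (−0.53, adjusted p = 0.384). Of the 22 tested transcripts of the 10 genes, 0 passed an adjusted p under 0.05 by limma in any comparison, where 0.691%, 0.0972% and 0.0243% of all transcripts did. At an unadjusted p under 0.05 there were 2 in the Ang II comparison, 2 in the QDG comparison and 2 between Ang II + QDG and Control mice, beside 15.9%, 11.3% and 10% of all transcripts. By the study's threshold 0 of 22 were called in each of the first comparisons, beside 2.88% and 2.24% of all transcripts, and 1 (Bok-202) between Ang II + QDG and Control mice, beside 2.02%. For 0 of 22 did the groups separate, beside 5.37%, 3.26% and 2.38% of all transcripts.

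**Figure D2:**
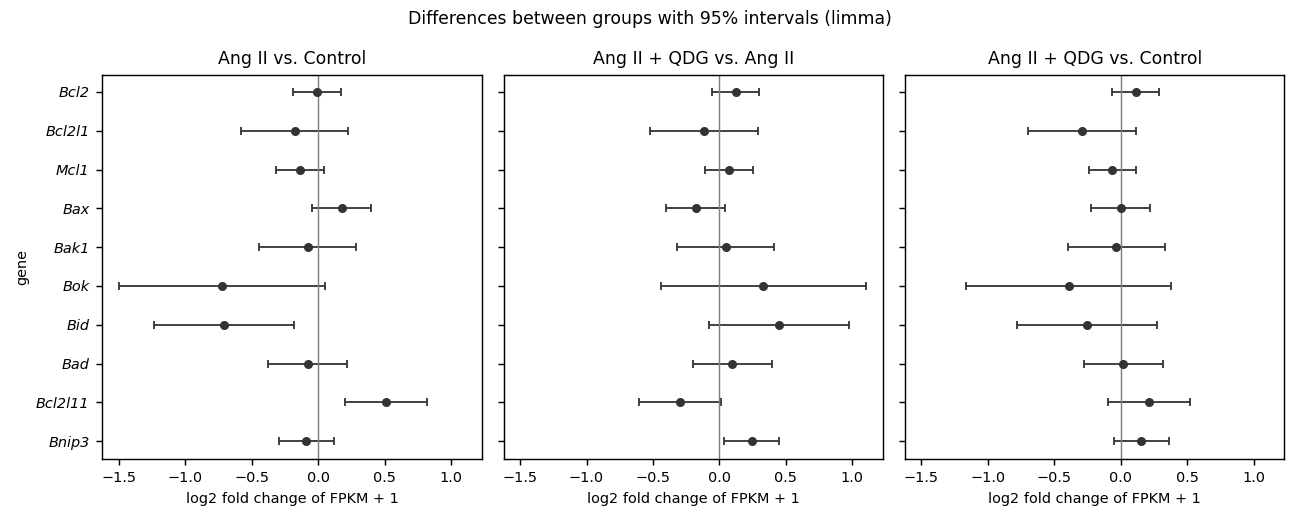
Log2 fold change of FPKM + 1 with its 95% interval (horizontal axes) for the 10 genes (rows) in the 3 comparisons, from 1 limma model of 15 mice. The intervals of Bid and Bcl2l11 in the Ang II comparison and of Bnip3 in the QDG comparison do not reach 0, and none of these passed the adjusted test.

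Bak1 (ENSMUSG00000057789, chromosome 17, 27019810 to 27029009, minus strand), the effector that resides on the mitochondria, had 5.46 to 6.47 FPKM in Control. The spread was wider in Ang II, at 4.50, 6.19, 7.43, 3.82 and 7.40 FPKM, and in Ang II + QDG, at 5.91, 7.06, 6.69, 3.78 and 6.74 FPKM, with mice on both sides of the Control range. Its log2 fold changes were −0.08 (SE 0.17, adjusted p = 0.829) and 0.05 (SE 0.17, adjusted p = 0.932), and without Ang II mice 2 and 5 they were −0.22 (adjusted p = 0.585) and 0.19 (adjusted p = 0.746). Exons of Ggnbp1 on the opposite strand share 614 bases with it.

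Bok (ENSMUSG00000026278, chromosome 1, 93685660 to 93695764, plus strand) encodes an effector that is held down by degradation and acts largely at the endoplasmic reticulum. It was the most variable member, with 12.4, 11.0, 9.79, 14.1 and 22.9 FPKM in Control mice, 17.7, 3.51, 5.42, 12.4 and 6.08 in Ang II mice, and 9.89, 6.03, 8.24, 13.4 and 14.7 in Ang II + QDG mice. Of the Ang II mice 3 were below all Control mice and the others were within the Control range. The log2 fold change of −0.72 in the Ang II comparison had a 95% interval of −1.49 to 0.05 (adjusted p = 0.256), and that of the QDG comparison was 0.33 (−0.44 to 1.10, adjusted p = 0.708). The latter was 0.090 without the second Ang II mouse and 0.60 without the first, which had the highest adipose sum and the highest Bok of its group. The Ang II comparison gave −0.995 (adjusted p = 0.0976) without that first mouse. Ang II mice 2 and 5, which stood apart in nephron segment markers, had 2 of the 3 low values, and without both the log2 fold change was −0.30 (adjusted p = 0.708) in the Ang II comparison and −0.091 (adjusted p = 0.953) in the QDG comparison. Its shorter noncoding transcript Bok-202 (ENSMUST00000185685) averaged 4.05 FPKM in Control mice, 2.20 in Ang II mice and 1.59 in Ang II + QDG mice, where 1 mouse had 0.0391 FPKM. Its log2 fold change between Ang II + QDG and Control mice was −1.05 (SE 0.35, unadjusted p = 0.00963, adjusted p = 0.347).

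With the libraries not rescaled, the BH3-only genes held the members that differed most relative to their spread. Bcl2l11 (ENSMUSG00000027381, chromosome 2, 128126038 to 128162547, plus strand) encodes Bim, which binds all antiapoptotic members and also the effectors. Its level was 3.33, 2.11, 1.58, 1.71 and 1.84 FPKM in Control mice, 3.09, 3.91, 3.56, 3.66 and 2.68 in Ang II mice and 2.44, 2.12, 3.07, 3.14 and 2.12 in Ang II + QDG mice. Every Ang II mouse was above 4 of the 5 Control mice, and 1 Control mouse lay within the Ang II range. Of the Ang II + QDG mice, 3 were below all Ang II mice. The means were 2.11 ± 0.705, 3.38 ± 0.491 and 2.58 ± 0.497 FPKM (SD, n = 5 each). Its log2 fold change in the Ang II comparison was 0.51 (SE 0.14, unadjusted p = 0.00329), and its adjusted p of 0.0533 lay just above 0.05. It was 0.0499 with transcripts missing from some mice taken as 0, the lowest of the 9 alternatives that kept every mouse, whose highest was 0.199. With the first Control mouse left out, the log2 fold change was 0.64 and the adjusted p was 0.0238. Over the 15 fits that left out 1 mouse it ran from 0.45 to 0.64, with an adjusted p of up to 0.122, and 1 fit passed. Without Ang II mice 2 and 5 it was 0.53 (adjusted p = 0.138). The QDG comparison gave −0.30 (SE 0.14, unadjusted p = 0.0598, adjusted p = 0.328), and Ang II + QDG against Control gave 0.21 (SE 0.14, adjusted p = 0.520).

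Bim is made in forms that differ by splicing, and the listed coding transcripts Bcl2l11-205 (ENSMUST00000110341) and Bcl2l11-203 (ENSMUST00000103210) are shown because they part at 1 exon segment. The capitals mark the 168 coding bases that Bcl2l11-205 keeps and Bcl2l11-203 splices out (chr2:128128757-128128924 on GRCm38, plus strand), between 15 bases on each side. The longer form is known as Bim EL and the shorter as Bim L, and the segment holds sites at which ERK phosphorylates Bim EL.
Bcl2l11-205: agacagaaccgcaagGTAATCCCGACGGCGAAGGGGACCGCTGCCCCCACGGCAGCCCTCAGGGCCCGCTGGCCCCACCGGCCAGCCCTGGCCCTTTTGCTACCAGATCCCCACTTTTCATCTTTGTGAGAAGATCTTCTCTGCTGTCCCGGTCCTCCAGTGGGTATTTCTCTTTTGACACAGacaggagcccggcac
Bcl2l11-203: agacagaaccgcaagacaggagcccggcac
Bcl2l11-205 had 1.82, 1.25, 0.765, 0.884 and 0.687 FPKM in Control mice, 1.75, 1.97, 2.27, 1.32 and 1.54 in Ang II mice and 1.10, 0.915, 1.59, 2.19 and 0.964 in Ang II + QDG mice. All Ang II mice were above 4 of 5 Control mice, as for the gene sum. Its log2 fold change in the Ang II comparison was 0.43 (SE 0.18, unadjusted p = 0.0344, adjusted p = 0.269), and that of Bcl2l11-203, at 0.531 to 1.50 FPKM in Control and 0.639 to 1.69 in Ang II mice, was 0.13 (SE 0.18, adjusted p = 0.789). The difference between the transcripts was not tested, and both were near the 1 FPKM of the filter, where the added 1 FPKM makes fold changes smaller.

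Bid (ENSMUSG00000004446, chromosome 6, 120891930 to 120916853, minus strand), which caspase-8 cleaves to link death receptors to the mitochondria, had 34.7, 30.6, 27.2, 35.1 and 43.4 FPKM in Control mice, 28.2, 35.1, 13.8, 17.6 and 14.1 in Ang II mice, and 18.3, 31.2, 30.7, 28.7 and 34.7 in Ang II + QDG mice. The Ang II mice formed a set of 3 at 13.8 to 17.6 FPKM, below all Control mice, and a pair inside the Control range. Among the Ang II + QDG mice 1, at 18.3 FPKM, was also below all Control mice. The means were 34.2 ± 6.10, 21.8 ± 9.47 and 28.7 ± 6.20 FPKM (SD, n = 5 each). The log2 fold change in the Ang II comparison was −0.71 (SE 0.25, unadjusted p = 0.0121, adjusted p = 0.104), and in the QDG comparison it was 0.45 (SE 0.25, adjusted p = 0.386). Without the second Ang II mouse, the first of these was −0.90 with an adjusted p of 0.0461. Over the 15 fits that left out 1 mouse it ran from −0.90 to −0.57, with an adjusted p of up to 0.210, and 1 fit passed. Without Ang II mice 2 and 5 it was −0.80 (adjusted p = 0.118). Its coding transcript Bid-201 held 91.4% to 98.5% of the level in the 15 mice and had a log2 fold change of −0.74 (SE 0.26, adjusted p = 0.181). Of the 3 low Ang II mice of Bid and the 3 of Bok, 2 were the same.

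Bad (ENSMUSG00000024959, chromosome 19, 6941861 to 6951899, plus strand) encodes a BH3-only protein that growth factor signals keep inactive through phosphorylation and binding to 14-3-3 proteins. Its level was even across the groups, with 13.7, 13.3, 13.9, 19.0 and 12.7 FPKM in Control mice, 14.2, 12.1, 11.1, 19.3 and 12.4 in Ang II mice and 16.1, 15.4, 12.1, 14.7 and 14.9 in Ang II + QDG mice. The log2 fold changes were −0.08 (SE 0.14, adjusted p = 0.784) and 0.10 (SE 0.14, adjusted p = 0.791), and without Ang II mice 2 and 5 they were 0.014 and 0.0038.

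The steady sum of Bad was made of transcripts that varied widely from mouse to mouse. Bad-201 (ENSMUST00000025910) starts further upstream than Bad-202 (ENSMUST00000113423), and its first exon adds coding bases that Bad-202 does not have. They are shown because the transcripts part there, with the start codon in capitals (chr19:6942323-6942440 on GRCm38, plus strand).
Bad-201: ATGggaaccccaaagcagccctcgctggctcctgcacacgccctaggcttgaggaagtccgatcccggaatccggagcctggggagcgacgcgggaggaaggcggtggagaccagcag
Bad-201 held 65.6%, 57.7%, 9.03%, 1.91% and 89.9% of the Bad level in the Control mice, 15.1%, 85.4%, 14.2%, 1.56% and 60.4% in the Ang II mice and 13.2%, 72.8%, 67.6%, 8.04% and 47.1% in the Ang II + QDG mice. Each group held mice with a high and mice with a low share, and the ranges of the groups overlapped. Over the mice, the log2 fold change of Bad-201 was −0.34 (SE 0.75, adjusted p = 0.875) in the Ang II comparison and that of Bad-202 was 0.12 (SE 0.68, adjusted p = 0.957). Ang II mice 2 and 5 had the 2 highest Bad-201 shares of their group, and without them Bad-202 had 0.93 (SE 0.68, adjusted p = 0.630) in the Ang II comparison and −0.64 (adjusted p = 0.848) in the QDG comparison, beside 0.18 with all mice. Exons of Gpr137 on the opposite strand share 517 bases with the listed Bad transcripts at this end, and whether the authors' counting used strand is not given in the sources used here.

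**Figure D3:**
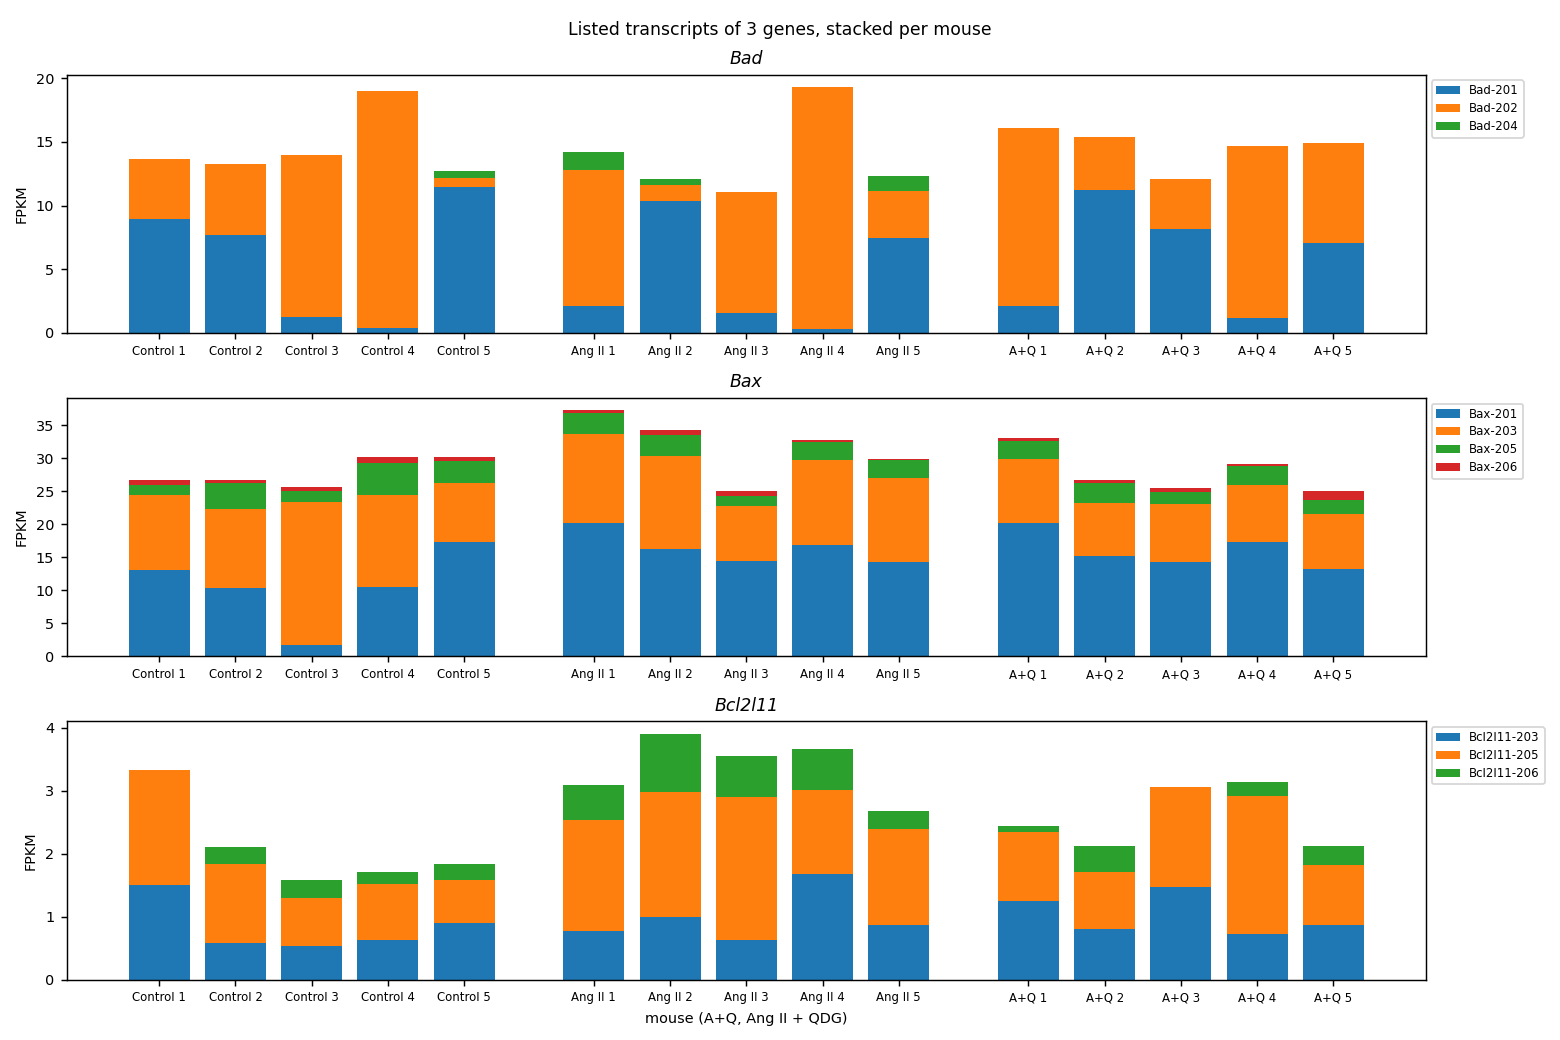
FPKM of each listed transcript of Bad, Bax and Bcl2l11 (stacked bars, from 0) in each of the 15 mice (horizontal axes; A+Q, Ang II + QDG). Bad-201 and Bad-202 take widely different shares within every group while the level of the gene is 11.1 to 19.3 FPKM, and the third Control mouse has 1.69 FPKM of Bax-201.

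Bnip3 (ENSMUSG00000078566, chromosome 7, 138890836 to 138909519, minus strand), an atypical member on the outer mitochondrial membrane that hypoxia induces and that marks mitochondria for mitophagy, was the most abundant of the 10 genes. It had 94.1, 93.2, 103, 97.6 and 98.5 FPKM in Control mice, 86.9, 72.0, 117, 96.8 and 89.4 in Ang II mice and 109, 107, 102, 119 and 104 in Ang II + QDG mice. The Ang II + QDG mice were all above 4 of the 5 Ang II mice, and 1 Ang II mouse at 117 FPKM lay among them. The log2 fold change was −0.09 (SE 0.10, adjusted p = 0.631) in the Ang II comparison, 0.24 (SE 0.10, unadjusted p = 0.0248, adjusted p = 0.219) in the QDG comparison and 0.15 (SE 0.10, adjusted p = 0.491) between Ang II + QDG and Control mice. The lowest value, 72.0 FPKM, was that of Ang II mouse 2, and without Ang II mice 2 and 5 the first of these was 0.033 (adjusted p = 0.876) and that of the QDG comparison 0.12 (adjusted p = 0.607). Exons of the antisense gene Gm45507 share 504 bases with it.

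Since FPKM is per kilobase, the levels of the members can be ordered. Over the 15 mice the mean level was 99.4 FPKM for Bnip3, 37.0 for Mcl1, 35.3 for Bcl2l1, 29.2 for Bax and 28.2 for Bid. It was 14.3 FPKM for Bad, 11.2 for Bok, 6.00 for Bak1, 2.69 for Bcl2l11 and 1.99 for Bcl2. Bnip3 was above Mcl1 and Bak1 above Bcl2l11 in 15 of 15 mice. The neighbours Mcl1 and Bcl2l1 crossed in every group, with Mcl1 higher in 2 of 5 Control, 2 of 5 Ang II and 4 of 5 Ang II + QDG mice. The order of Bax and Bid was not the same in each group, with Bid higher in all 5 Control mice and Bax higher in 4 of 5 Ang II and 2 of 5 Ang II + QDG mice. Bok was above Bak1 in 5 of 5 Control, 2 of 5 Ang II and 4 of 5 Ang II + QDG mice. Among the 12366 genes tested, Bnip3 lay at percentile 94.7 of mean level and Bcl2 at percentile 17.5.

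The balance of Bax to Bcl2 is often used to summarise the family. The ratio of their levels was 14.3, 13.3, 12.5, 17.7 and 15.5 in the Control mice, 19.9, 15.5, 14.5, 16.2 and 17.8 in the Ang II mice and 18.0, 13.8, 11.4, 12.9 and 10 in the Ang II + QDG mice. The means were 14.7 ± 2.06, 16.8 ± 2.11 and 13.2 ± 3.05 (SD, n = 5 each), and the groups overlapped. As a score over members it was not tested. Of the 45 ratios between pairs of members, examined after their values were seen and with no test, 2 separated Ang II from Control mice, 1 separated Ang II + QDG from Ang II mice and 1 separated Ang II + QDG from Control mice, where 7.92%, 5% and 3.64% of single genes did. The second was Bcl2 to Bcl2l11, at 0.484 to 0.625 in Ang II and 0.720 to 1.18 in Ang II + QDG mice. The first were Bax to Bid (0.696 to 0.941 in Control and 0.978 to 2.12 in Ang II mice) and Bid to Bcl2l11 (10.4 to 23.6 and 3.87 to 9.13), and the last was Bcl2l1 to Bnip3 (0.361 to 0.447 in Control and 0.193 to 0.354 in Ang II + QDG mice). The 45 ratios share 10 genes, so the shares of single genes are no like background for them. Both ratios with Bcl2l11 include noncoding Bcl2l11-206, at 0 to 0.287 FPKM in Control, 0.280 to 0.932 in Ang II and 0 to 0.405 in Ang II + QDG mice. Ratios without that transcript were not computed. Summed by role, the antiapoptotic genes had 79.5 ± 7.37, 72.2 ± 8.29 and 71.3 ± 3.72 FPKM and the effectors 48.0 ± 7.28, 46.7 ± 8.11 and 44.4 ± 4.04 FPKM in the groups in the same order. The BH3-only genes, of which Bnip3 made up the larger share, had 148 ± 6.87, 131 ± 10.9 and 154 ± 7.75 FPKM. Their highest Ang II value was 145.6 FPKM and their lowest Ang II + QDG value was 146.3 FPKM. Without Bnip3 the sum was 28.4 to 51.1 FPKM in Ang II mice and 36.8 to 51.8 in Ang II + QDG mice, which overlap.

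**Figure D4:**
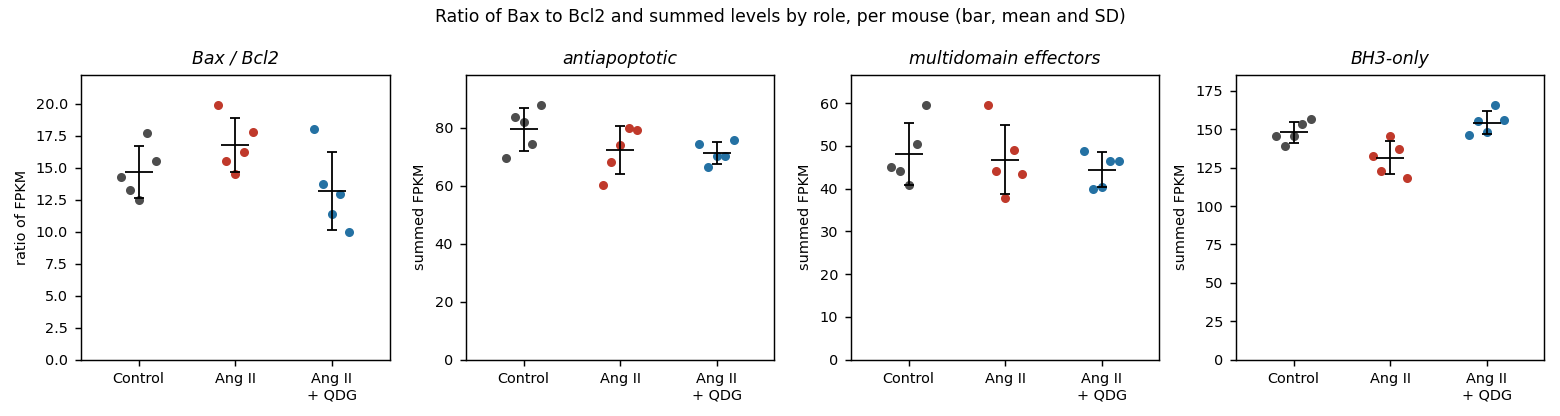
Ratio of Bax to Bcl2 and summed FPKM of the antiapoptotic genes, the effectors and the BH3-only genes (vertical axes, from 0) in each mouse (points) of the 3 groups, with mean and SD (bars). Every group of mice overlaps with the others except for the BH3-only sum, where Ang II (at most 145.6 FPKM) and Ang II + QDG (at least 146.3 FPKM) only just part and would overlap without Bnip3.

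The genes whose level followed a member most closely over the 15 mice were named for 4 members, as a description. For Bax they were Calm3 (Pearson's r = 0.92 on the log2 scale), Map3k10 (0.92) and Idnk (0.90), and for Bcl2 they were Ice1 (0.79), Tdp1 (0.77) and Kctd12 (0.76). For Bcl2l1 they were Strap (0.84), Hebp1 (0.80) and Cstf1 (0.76), and for Mcl1 they were Fam229b (0.85), Odf2 (0.85) and Gm36283 (0.81). Each is the top of 11976 genes, and the mice share their treatment groups. Among the members themselves, r ran from −0.65 between Mcl1 and Bcl2l11 to 0.47 between Bcl2 and Bid.

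Of 18 relatives of the family, 11 were tested and 0 passed limma's test at an adjusted p under 0.05 in any comparison, beside 5.94%, 1.81% and 0.129% of all genes. At an unadjusted p under 0.05 there were 1 in the Ang II comparison, 3 in the QDG comparison and 1 between Ang II + QDG and Control mice, beside 22.7%, 16.4% and 14.4% of all genes. The median log2 fold changes were 0.10, −0.03 and 0.05, beside 0.08, −0.02 and 0.06. Bcl2a1a, Bcl2a1d, Bcl2l10, Bcl2l15 and Hrk had no named transcript listed in all 15 mice, and Bcl2a1b and Bcl2l14 were under the filter. Bcl2l2, which encodes the antiapoptotic Bcl-w, had 10.6 to 14.1 FPKM in Control mice, 4.30 to 11.6 in Ang II mice and 8.95 to 15.4 in Ang II + QDG mice. Its log2 fold changes were −0.53 (SE 0.20, adjusted p = 0.133) and 0.51 (SE 0.20, adjusted p = 0.215), and the first turned to 0.11 (adjusted p = 0.915) with the most abundant transcript only. Bmf, a BH3-only gene whose protein rests on the actin cytoskeleton, had 0.982 to 2.31 FPKM in Control mice, 1.35 to 2.19 in Ang II mice and 2.14 to 3.44 in Ang II + QDG mice. It had log2 fold changes of 0.44 (SE 0.14, unadjusted p = 0.00841, adjusted p = 0.134) in the QDG comparison and 0.45 (adjusted p = 0.181) between Ang II + QDG and Control mice.

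Regulators and partners of the members were the longest list and the one with the most calls in the Ang II comparison. Of 30 tested, 4 rose and 0 fell at an adjusted p under 0.05, where 4.95% of all genes rose and 0.995% fell. That background turned with scaling: 612 genes rose and 123 fell, but 210 rose and 286 fell with median scaling. At an unadjusted p under 0.05 there were 11 of 30, beside 22.7% of all genes, and the median log2 fold change was 0.22 beside 0.08 for all genes. The 4 were Akt1 and Prkaca, a protein kinase B and the catalytic subunit of protein kinase A, which both phosphorylate Bad, and Ywhah and Ywhag, 14-3-3 proteins of the kind that hold phosphorylated Bad in the cytosol. Prkaca rose from 29.7 to 36.6 FPKM on average (log2 fold change 0.29, SE 0.07, adjusted p = 0.0260), with Control at 26.6 to 31.6 and Ang II at 31.8 to 38.6. The Ang II + QDG mice, at 33.1 to 38.2 FPKM, were also all above the Control mice, with a log2 fold change of 0.22 and an adjusted p of 0.161. Ywhah was 34.7, 39.1, 33.1, 37.2 and 35.6 FPKM in Control mice, 45.3, 42.2, 41.5, 40.7 and 44.3 in Ang II mice and 34.1, 34.5, 36.3, 36.6 and 33.5 in Ang II + QDG mice. Every Ang II mouse was above every other mouse. It rose by 0.25 (SE 0.05, adjusted p = 0.0184) and fell by 0.28 in the QDG comparison (SE 0.05, adjusted p = 0.0222), the only gene of this list called there, and 1.29% of all genes fell. The latter call was lost with quantile normalization (−0.22, adjusted p = 0.0544), with the compared groups only (−0.28, adjusted p = 0.0502) and without Ang II mice 2 and 5 (−0.27, adjusted p = 0.123). At an unadjusted p under 0.05 there were 3 in the QDG comparison, beside 16.4% of all genes, and the median of the list was −0.09 beside −0.02 for all genes.

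Akt1 rose by 0.27 (adjusted p = 0.0494) and Ywhag by 0.26 (adjusted p = 0.0427) on the log2 scale, with 1 Control mouse of each inside the Ang II range. Akt1 in the Ang II + QDG mice was at 28.9 to 33.8 FPKM, beside 29.5 to 36.6 in Ang II (log2 fold change −0.04, adjusted p = 0.829). All 4 rises in the Ang II comparison were small and lost their call when the libraries were scaled to equal medians, with adjusted p of 0.117 for Akt1, 0.0793 for Prkaca, 0.173 for Ywhag and 0.108 for Ywhah. Without Ang II mice 2 and 5 none of the 4 passed, with log2 fold changes of 0.24 to 0.30 and adjusted p of 0.0938 to 0.166. Between Ang II + QDG and Control mice 0 of the 30 passed by limma, beside 0.129% of all genes, 6 had an unadjusted p under 0.05, beside 14.4%, and the median was 0.17 beside 0.06 for all genes.

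**Figure D5:**
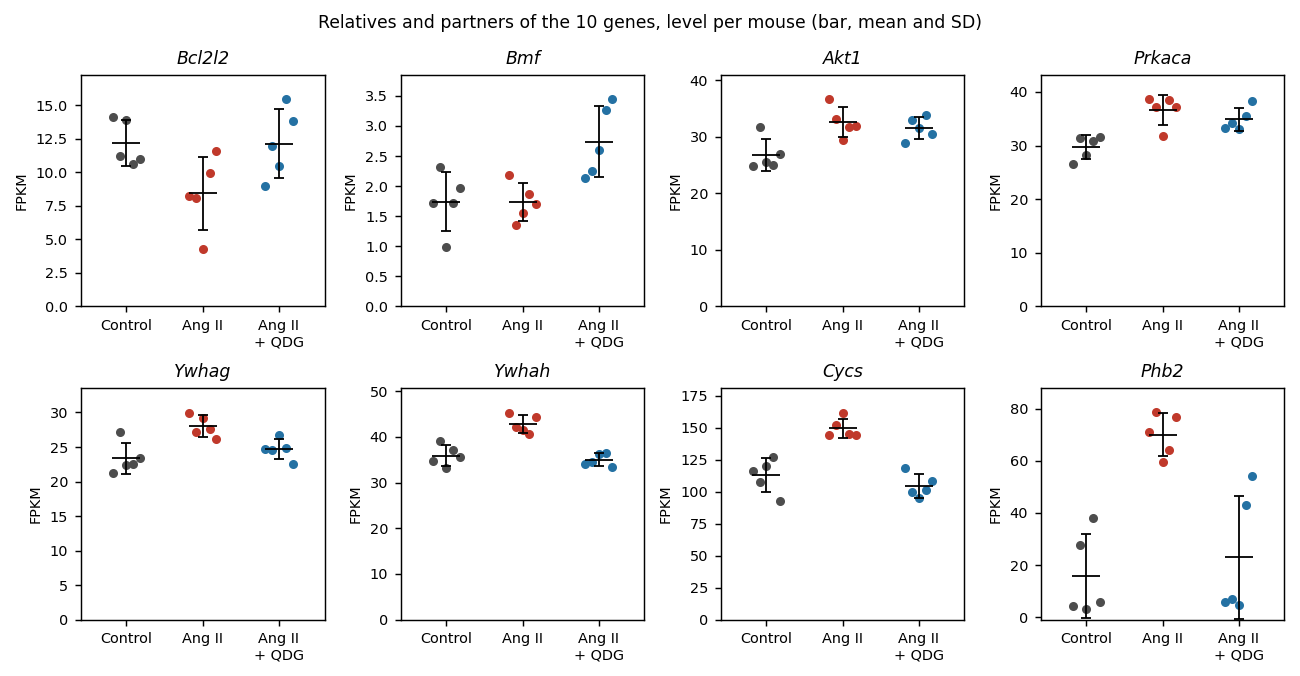
FPKM of 2 relatives (Bcl2l2, Bmf) and 6 partners of the 10 genes (vertical axes) in each mouse (points) of each group, with mean and SD (bars). Ywhah and Cycs are higher in all 5 Ang II mice than in any other mouse, and Phb2 lies either at most at 6.98 FPKM or at least at 27.8 FPKM in the Control and Ang II + QDG mice.

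Among 13 tested genes of cytochrome c release and of the caspases, 1 rose in the Ang II comparison and 1 fell in the QDG comparison, beside 4.95% and 1.29% of all genes. In both comparisons it was Cycs, which encodes the cytochrome c that Bax and Bak1 pores let out. Its sum over transcripts was 92.7 to 128 FPKM in Control mice, 144 to 162 in Ang II mice and 95.2 to 119 in Ang II + QDG mice, with log2 fold changes of 0.41 (SE 0.08, adjusted p = 0.0144) and −0.51 (SE 0.08, adjusted p = 0.0135). At an unadjusted p under 0.05 this list had 1, 2 and 0 genes in the 3 comparisons, beside 22.7%, 16.4% and 14.4% of all genes, and its medians were −0.07, −0.17 and 0.01. With median scaling the rise of Cycs was 0.31 and its adjusted p was 0.0806. Neither call of Cycs held without Ang II mice 2 and 5, at 0.42 with an adjusted p of 0.0772 and −0.52 with an adjusted p of 0.0844.

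Of 12 mitophagy genes linked to Bnip3, 1 rose in the Ang II comparison, beside 4.95% of all genes, and 0 passed limma's test in the other comparisons, beside 1.81% and 0.129%. At an unadjusted p under 0.05 there were 3, 5 and 0 genes in the 3 comparisons, beside 22.7%, 16.4% and 14.4% of all genes, and the medians were 0.02, −0.04 and 0.0027. The gene was Phb2, an inner membrane protein that serves as a mitophagy receptor. Its listed transcripts summed to 4.27, 27.8, 3.29, 38.2 and 5.70 FPKM in Control mice, 71.0, 78.6, 59.5, 64.3 and 76.9 in Ang II mice and 5.75, 6.98, 4.72, 43.2 and 54.0 in Ang II + QDG mice. The Ang II mice were above all others, and the other groups each held low and high mice. Phb2 rose by 2.67 on the log2 scale (SE 0.74, adjusted p = 0.0488) in the Ang II comparison, a call that 2 of the 9 alternatives kept and that was lost without Ang II mice 2 and 5 (2.56, adjusted p = 0.178), and had −2.24 (SE 0.74, adjusted p = 0.137) in the QDG comparison. Transcripts that the authors assembled, 9.57% to 11.9% of all FPKM, carry no gene name and so enter no sum, and their part in these values was not tested.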

How the data were processed

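Kidney RNA of 15 mice, 5 per group, was sequenced as paired ends on an Illumina HiSeq. The authors deposited 1 file per mouse with a value per transcript on mm10, which was taken as FPKM because multiplying it by transcript length (GENCODE mouse release 21) gave whole multiples, within 0.1, of 1 constant per mouse for 98.7% to 98.8% of values under 200 fragments. That constant gave the depth, and counting errors cover counting only. The aligner, assembler and annotation are not given in the sources used here, and limma is named in the submitters' processing notes. Of 31301 Ensembl transcript IDs, 31244 matched GENCODE, 28863 named transcripts were listed in all 15 files, and FPKM were summed per gene. The 11141 assembled transcripts listed in all files were not assigned to genes.

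Groups came from the labels. The groups were compared with limma 3.58.1 in R 4.3.3 (lmFit, eBayes with trend) on log2(FPKM + 1), in 1 model with 12 residual degrees of freedom, for genes at 1 FPKM or more in 5 or more mice, and p-values were adjusted by Benjamini-Hochberg over 12366 genes or 28812 transcripts. Fold changes are on the log2(FPKM + 1) scale, which understates those of low genes. In simulated data the test called 64% of genes with a true log2 change of 0.5 and 80% of those with 1, at an adjusted p under 0.05. It called 0.109% of unchanged genes. The changed genes were drawn from higher-level genes only, so the recovery of genes as low as Bcl2, Bcl2l11 and Bak1 was not covered. Other steps used Python 3.11.15 and pandas 2.3.3. All 10 members were described. Of a member's transcripts, the most abundant and those with an unadjusted p under 0.05 in the Ang II or QDG comparison were named. Bax-205, Bok-202, Bcl2l11-203, Bcl2l11-206 and Bad-201 were added after their values were seen. Of the other lists, genes past an adjusted p of 0.05 in any comparison were named, or otherwise the 2 with the smallest unadjusted p, and by likeness the top 3 genes with a mean of at least 1 FPKM. Members and lists were chosen with earlier results of these data known. Alternatives were a pseudocount of 0.1, no filter, median scaling, quantile normalization, coding transcripts only, the most abundant transcript only, missing transcripts as 0, fits of the compared groups only, no trend, and leaving out each mouse in turn. Leaving out Ang II mice 2 and 5 was added after the data were seen. 1 cell type marker is not reported here.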

Additional observations from a re-analysis of the deposited data

Results flagged for a closer look

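In each group of 5 mice, the gap of the highest and lowest value of each member to its nearest neighbour was compared with Dixon's 95% critical value. Of 30 groups examined, 2 held such a mouse, where chance gives about 1 in 20. Bcl2l1 was 20.6 FPKM in the second Ang II + QDG mouse, with the others at 32.3 to 36.1 FPKM. Bad was 19.0 FPKM in the fourth Control mouse, with the others at 12.7 to 13.9 FPKM.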

How the results depend on the processing

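No paired analysis was possible because mouse numbers were given here within each group, in the order of the samples, and no label links a mouse of one group to a mouse of another. Over 9 alternatives that kept every mouse and 15 fits that each left out 1 mouse, the 10 members gave 720 values. Of these, 3 passed an adjusted p under 0.05, all in the Ang II comparison: Bcl2l11 with missing transcripts as 0 and without the first Control mouse, and Bid without the second Ang II mouse, so the number of members called was 1 in these and 0 to 1 over the left-out mice. With median scaling or quantile normalization 4 members had an unadjusted p under 0.05 in the Ang II comparison, beside 20.2% and 20.1% of all genes.
The number of genes called in the Ang II comparison was 735. It was 408 with coding transcripts only, 353 with the most abundant transcript only, 456 with the compared groups only, and 338 to 797 with 1 mouse left out. In the QDG comparison 224 became 58 with the compared groups only and 53 to 250 with 1 mouse left out. Between Ang II + QDG and Control 16 became 6 with coding transcripts only, 6 with the most abundant transcript only, 80 with missing transcripts as 0, 4 with the compared groups only and 0 to 110 with 1 mouse left out. Scaling moved the direction of the calls: in the Ang II comparison 612 genes rose and 123 fell, but 210 and 286 with median scaling and 227 and 266 with quantile normalization. In the QDG comparison 65 and 159 became 68 and 99 or 97 and 97, and between Ang II + QDG and Control 12 and 4 became 10 and 12 or 8 and 7.
The following signs turned. Between Ang II + QDG and Control, Bad was −0.066 with median scaling and −0.036 with quantile normalization (0.02 otherwise). With the most abundant transcript only, Bad was 0.12 in the Ang II comparison, Bax 0.78 between Ang II + QDG and Control and Bcl2l2 0.11 in the Ang II comparison. Bad-202 was −0.0048 in the Ang II comparison with median scaling. In the QDG comparison, Bcl2l1-202 was 0.017 with median scaling and 0.032 with quantile normalization, and Bax-201 was 0.0015 with quantile normalization.
With 1 mouse left out, the log2 fold changes in the Ang II comparison ran from −0.20 to 0.017 for Bad, −0.047 to 0.019 for Bcl2, −0.16 to 0.039 for Bak1, −0.39 to 0.55 for Bad-202 and −0.23 to 0.073 for Bax-203. In the QDG comparison they ran from −0.25 to 0.029 for Bcl2l1, −0.072 to 0.18 for Bak1, −0.12 to 0.035 for Bax-201, −0.17 to 0.21 for Bcl2l1-202 and −0.26 to 0.52 for Bad-202. Between Ang II + QDG and Control they ran from −0.063 to 0.033 for Bax, −0.023 to 0.11 for Bad, −0.088 to 0.10 for Bak1, −0.32 to 0.064 for Bok-201 and −0.21 to 0.67 for Bad-202. Leaving out Ang II mice 2 and 5 together, an alternative added after the data were seen that also lowers the number of mice, gave 82, 7 and 14 genes called in the 3 comparisons and 0 members. It turned Bad (0.014), Bnip3 (0.033) and Bnip3-201 (0.027) in the Ang II comparison and Bok (−0.091), Bok-201 (−0.066), Bcl2l1-202 (0.0041) and Bad-202 (−0.64) in the QDG comparison, moved Bad-202 from 0.12 to 0.93 and Bak1 from −0.08 to −0.22 in the Ang II comparison, and lost every call of the named partners. The cause of these shifts was not tested. The calls of Akt1, Ywhag and Phb2 in the Ang II comparison were lost in most fits that left out a mouse (they held in 2, 3 and 5 of 15), that of Prkaca held in 9, and those of Ywhah and Cycs held in all 15. In the QDG comparison, Ywhah held in 11 of 15 and Cycs in 15.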
